A study of Mus musculus with 10 samples.

Results

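Transcripts that mark glia other than microglia, neurons, vessels and the choroid plexus were followed in microglia sorted from the hippocampus of aged 3xTg AD mice, in 33 genes taken from the deposited count table by symbol, of 55453 genes in all. The list holds 7 genes of myelinating oligodendrocytes, 2 of oligodendrocyte precursors, 8 of astrocytes, 8 of endothelium, 7 of neurons and 1 of the choroid plexus. Of the 33 genes, 18 passed edgeR's filter on low counts and were tested, and 15 were not. EdgeR called 0 of the 18 as different between treatments, as it called 0% of the 14481 genes tested. At an unadjusted *P* under 0.05 it found 0 of the 18 against 5.75% of all genes, and DESeq2 and limma-voom also found 0 members, against 4.53% and 6.12% of all genes in their fits. Their levels fell into 2 ranges. *Bsg*, *Slc1a3*, *Cnp*, *Mbp*, *Mag*, *Pecam1* and *Cspg4* averaged between 13.8 and 448 normalized CPM (CPM: a gene's counts scaled to a common library size, here by edgeR's TMM method), and the other 26 averaged 2.3 CPM or less. The 5 CPM that divides them in what follows was chosen after the values were seen.

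The series holds 10 bulk RNA-seq libraries, 5 from mice given glatiramer acetate (GA, an immunomodulatory mixture of synthetic peptides) and 5 from mice given phosphate-buffered saline (PBS). Every mouse of both groups was a female of the 3xTg AD strain. Its alleles include mutated human *APP* and *MAPT* genes driven by the neuronal Thy1.2 promoter. Per the study's methods, the mice were about 15 months old when injections began. GA was given at 0.1 mg per injection over 8 weeks, weekly but for an extra injection in the first week, and PBS on the same schedule. Per the labels, hippocampal cells were passed through a percoll gradient, for which the study's methods give magnetic beads as another way of removing myelin, and sorted as CD45int CD11b+ cells, a gate that should hold microglia and leave out cells without CD45 and CD11b. The comparison asks whether GA changed RNA of other brain cells in the sorted fraction. The labels do not say that libraries came from separate animals, so the *P* values measure the spread between these libraries, which may be technical. Library titles start with 388 for every PBS library and with 394 (2 libraries) or 400 (3 libraries) for GA, so this prefix and the treatment cannot be told apart. Total counts ran from 32332185 to 37708856 per PBS library and from 33300102 to 38764643 per GA library. A gene counted 0 times in a library could still stand at up to 3 counts, or 0.0771 to 0.0929 CPM. This limit covers counting error only.

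Oligodendrocytes wrap axons in myelin, and their major mRNAs encode proteins of that sheath. Astrocytes clear glutamate, buffer water and ions and are joined by gap junctions, endothelial cells seal the blood-brain barrier with tight junctions, and neurons carry a synaptic release machinery. Microglia are the phagocytes of the brain parenchyma, take up myelin and synaptic debris and are defined by *P2ry12*, *Tmem119*, *Csf1r* and *Cx3cr1* among others. Some of the marker genes followed here are known outside their named class, such as *Bsg*, which encodes the widely expressed matrix metalloproteinase inducer basigin, and *Pecam1*, an adhesion molecule of endothelium and of leukocytes.

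The sorted fraction was dominated by microglial RNA. A list of 10 microglial markers took 5.51 to 6.28% of the counts of a library, and all 10 averaged above 5 CPM, led by *Csf1r* at 16730 CPM. The 33 genes together took 0.0978 ± 0.00373% of the counts (SD, n = 10), with 0.0959 ± 0.00376% (SD, n = 5) in the PBS libraries and 0.0997 ± 0.0028% (SD, n = 5) in the GA libraries. The 7 genes above 5 CPM held 98.7% of their summed level. Markers of T cells and fibroblasts, 5 genes each, all averaged under 1 CPM. In bulk samples fewer cells of a type and less RNA per cell cannot be told apart.

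The promoters of 4 members are shown, as examples of abundant and of scarce genes that were chosen after their levels and the matches below were seen. *Mag* and *Slc1a3* are above 5 CPM, while *Mog* and *Cldn5*, markers of the same sheath and of the vessel wall, were counted 18 and 9 times in all 10 libraries. Each window holds the 250 bases before a RefSeq transcription start on GRCm38.p6, read on the gene's strand, and no annotated exon base. Capitals mark the letters GAGGAAG, the core bound by the myeloid factor PU.1, searched on both strands. The windows are chr7:30914923-30915172 (minus strand) for *Mag*, chr15:8710808-8711057 (minus strand) for *Slc1a3*, chr17:37023399-37023648 (minus strand) for *Mog* and chr16:18776597-18776846 (plus strand) for *Cldn5*.
Mag: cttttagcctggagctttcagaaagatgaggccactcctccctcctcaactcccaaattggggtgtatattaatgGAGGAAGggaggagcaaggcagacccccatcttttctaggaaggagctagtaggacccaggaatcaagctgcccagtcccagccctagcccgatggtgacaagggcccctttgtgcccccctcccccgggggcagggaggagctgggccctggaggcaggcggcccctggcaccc
Slc1a3: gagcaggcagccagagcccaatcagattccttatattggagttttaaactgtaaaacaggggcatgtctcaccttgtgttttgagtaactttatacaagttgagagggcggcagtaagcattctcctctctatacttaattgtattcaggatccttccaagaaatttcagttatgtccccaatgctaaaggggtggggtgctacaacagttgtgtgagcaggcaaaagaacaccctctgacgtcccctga
Mog: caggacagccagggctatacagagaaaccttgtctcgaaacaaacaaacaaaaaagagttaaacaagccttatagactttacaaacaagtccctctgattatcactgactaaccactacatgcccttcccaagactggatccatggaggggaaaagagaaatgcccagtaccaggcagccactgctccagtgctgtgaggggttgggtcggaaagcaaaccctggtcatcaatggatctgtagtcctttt
Cldn5: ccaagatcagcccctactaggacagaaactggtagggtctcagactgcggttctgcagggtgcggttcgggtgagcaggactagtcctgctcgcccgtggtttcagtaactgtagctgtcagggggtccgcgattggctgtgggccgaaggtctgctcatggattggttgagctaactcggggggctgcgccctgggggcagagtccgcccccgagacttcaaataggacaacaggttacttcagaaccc
The core stands once in the *Mag* window and not in the other 3 windows. Among all 32817 RefSeq promoter windows of this length, 10.6% hold it. RefSeq windows were read for 23 of the 33 members, some with more than 1 start, and the core was found in 3 of them, *Gja1*, *Mag* and *Rbfox3*. Only 4 of the members above 5 CPM had a window, and *Mag* was the 1 among them with the core. The window of another *Mag* start, chr7:30914322-30914571, held 0 matches. The SOX letters AACAAAG or AACAATG, searched likewise, were found in 5 of the 23, *Cnp*, *Mobp*, *Rbfox3*, *Syt1* and *Tek*, and stand in 8.12% of all windows. A match is a stretch of letters and was not tested as a binding site.

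Levels of different genes were compared as CPM per kilobase of exon, with exon lengths from GENCODE M21 on GRCm38, whose models hold all 33 genes. On this scale *Bsg* had a mean of 247 CPM per kb and stood above every other member in each library. *Slc1a3* followed at 32.9 CPM per kb and *Cnp* at 28.1 CPM per kb, and the ranges over the 10 libraries overlapped, at 28.4 to 40.8 and 25.2 to 33.8. *Mag* had 9.06, *Mbp* 6.28 and *Pecam1* 4.75 CPM per kb, each overlapping its neighbour in this order. *Cspg4* had 1.15 CPM per kb, which overlapped *Ttr* at 1.03, and *Gfap* had 0.546. For comparison, *Csf1r* had 2900 CPM per kb. The same 7 genes led on both scales. Of the other 26 genes, 6 averaged between 1 and 5 CPM and 20 averaged under 1 CPM, and 17 of the 33 had a count of 0 in at least 1 library.

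**Figure D1:**
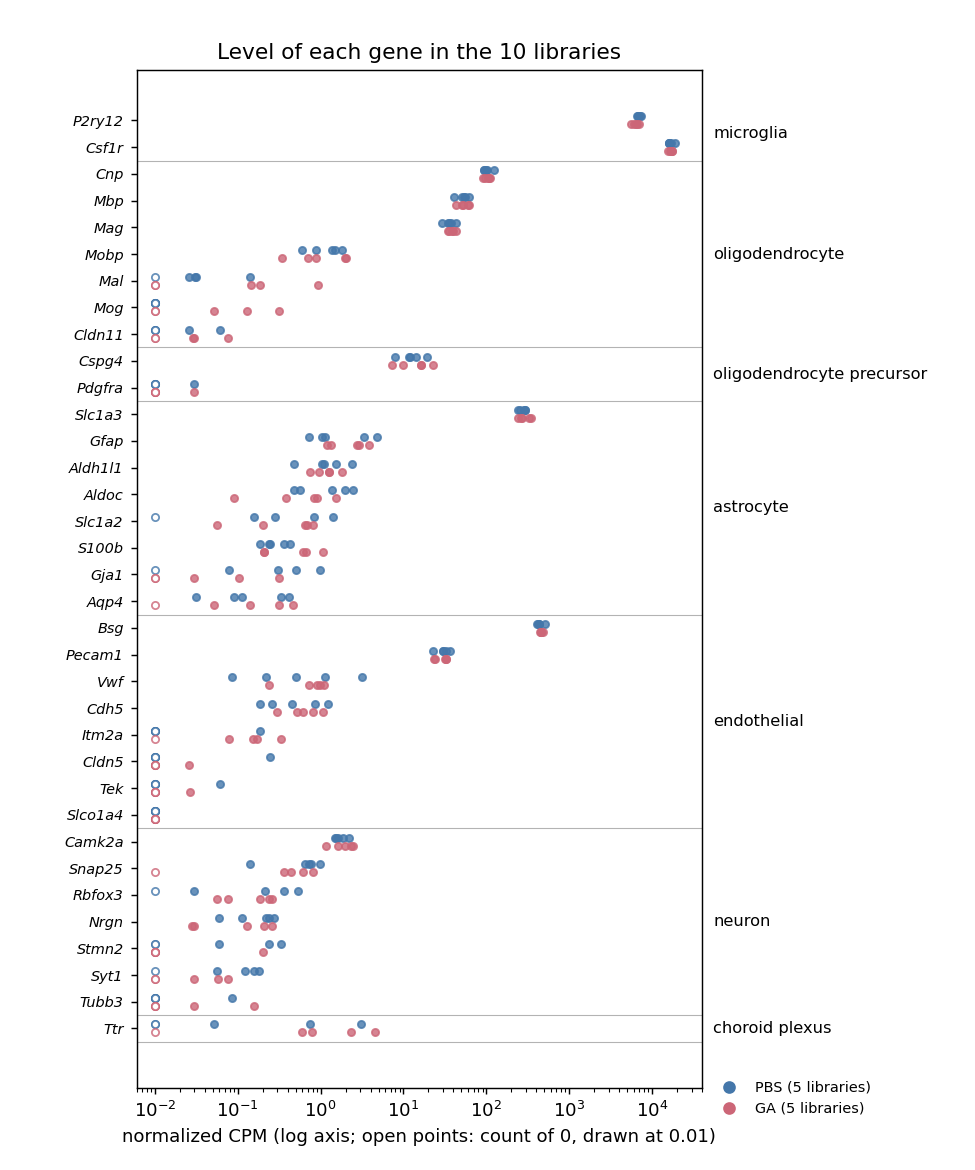
Normalized CPM of each of the 33 genes (vertical axis, by class) in the 10 libraries, on a logarithmic horizontal axis, with P2ry12 and Csf1r above for scale. Each point is 1 library, blue for PBS and red for GA, and open points mark a count of 0, drawn at 0.01. The 7 genes above 5 CPM form tight clusters of points, while most of the others spread over a wide range of levels.

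The oligodendrocyte genes split between 3 abundant and 4 scarce members. *Cnp* (ENSMUSG00000006782.16, chr11:100574904-100591729), the cyclic nucleotide phosphodiesterase of myelin, is followed by *Mbp*, a myelin basic protein that compacts the sheath, and *Mag*, the adhesion molecule of the innermost myelin layer. In PBS libraries 388_1 to 388_5, in this order here and below, *Cnp* had 102, 93.5, 94.1, 98.9 and 123 CPM. In GA libraries 394_1, 394_2, 400_1, 400_2 and 400_3, also in this order throughout, it had 107, 91.7, 105, 96.7 and 110 CPM. PBS library 388_5 was the highest of all and the groups overlapped throughout. The log2 fold change of *Cnp*, GA minus PBS here and below, was -0.0037 (95% interval -0.18 to 0.18, adjusted *P* = 0.997, edgeR). *Cnp* shares 154 exon bases, 4.23% of its exons, with *Dnajc7* on the opposite strand, and whether the counting used strand is not given in the sources used here.

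*Mag* (ENSMUSG00000036634.15, chr7:30899176-30914873) had 34.6, 42.8, 37.7, 35.1 and 28.8 CPM in the PBS libraries and 39.2, 38.3, 42.8, 34 and 35.7 CPM in the GA libraries. The lowest value was that of PBS library 388_5, where *Cnp* was highest, and the remaining values interleaved. For *Mag* the log2 fold change was 0.09 (95% interval -0.14 to 0.31, adjusted *P* = 0.949, edgeR). *Mbp* (ENSMUSG00000041607.17) had 40.9 to 60.9 CPM with PBS and 43.4 to 61.4 CPM with GA, with a log2 fold change of 0.03 (95% interval -0.21 to 0.28, adjusted *P* = 0.978, edgeR). These 3 genes rest on 1016 to 4338 counts in each library.

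The other 4 myelin genes did not share these levels. *Mobp*, which encodes another basic protein of compact myelin, ran from 0.341 to 2.04 CPM and was the only one of the 4 tested. *Cldn11*, the tight junction protein between myelin layers, was counted 8 times in all libraries together. *Mal*, a proteolipid of myelin membranes, was counted 51 times, 31 of them in GA library 394_1. *Mog* (ENSMUSG00000076439.12, chr17:37010743-37023398), a glycoprotein on the outer face of myelin, had 0 counts in each of the 5 PBS libraries and 0, 0, 11, 5 and 2 counts in the GA libraries. All 18 reads therefore came from the libraries of prefix 400. Taken over each group, with 3 counts allowed in the 5 PBS libraries together, the *Mog* level with GA was 5.71 times this PBS limit. Without library 400_1 the ratio was 2.75. Counting error and spread between the GA libraries are not in these ratios, so they are not lower bounds of a difference. The libraries overlapped at 0, and a two-sided exact permutation test gave *P* = 0.167. Of 15 further oligodendrocyte genes, 3 passed the filter, 0 were called and 0 had an unadjusted *P* under 0.05. Their most abundant member by CPM was *Trf*, the iron carrier transferrin, at 151 CPM, and it held most of their summed level.

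The pair of precursor genes also split. *Pdgfra*, the receptor through which platelet-derived growth factor drives precursor division, was counted 2 times in all libraries. *Cspg4* (ENSMUSG00000032911.6, chr9:56865033-56899870) encodes a surface proteoglycan of precursors and of pericytes. It had 7.98, 12.1, 11.8, 19.3 and 14 CPM in the PBS libraries and 9.73, 7.29, 16.4, 22.9 and 16.2 CPM in the GA libraries. The highest value was in GA library 400_2 and the lowest in GA library 394_2, so that the GA group spanned the whole PBS range. Its log2 fold change was 0.16 (95% interval -0.44 to 0.76, adjusted *P* = 0.967, edgeR), and it was the most variable of the 7 abundant genes, with a coefficient of variation of 36.3%. Mural cell markers, of which *Pdgfrb* was the most abundant by CPM at 3.75, had 0 of 2 tested genes called and summed to 4.64 to 9.89 CPM with PBS and 2.81 to 9.02 CPM with GA.

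Among the astrocyte genes *Slc1a3* stood alone. *Slc1a3* (ENSMUSG00000005360.14, chr15:8634124-8710764) encodes a glutamate transporter and had 242, 282, 257, 295 and 291 CPM in the PBS libraries and 323, 349, 268, 243 and 262 CPM in the GA libraries. Both libraries of prefix 394 lay above every PBS library, and the 3 of prefix 400 lay within the PBS range. The log2 fold change of *Slc1a3* was 0.08 (95% interval -0.13 to 0.29, adjusted *P* = 0.951, edgeR). *Slc1a2*, the glutamate transporter that carries most uptake in the forebrain, ran from 0 to 1.43 CPM, with 0 counts in 1 PBS library. *Aqp4*, the water channel of astrocyte end-feet, and *Gja1*, their main gap junction protein, were counted 71 and 78 times in all and did not pass the filter.

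*Gfap* (ENSMUSG00000020932.14, chr11:102887336-102900912), the intermediate filament of reactive astrocytes, had 1.05, 0.717, 1.13, 4.74 and 3.37 CPM in the PBS libraries and 1.2, 2.72, 2.92, 3.85 and 1.34 CPM in the GA libraries. Each group held libraries close to the lowest value and libraries well above it. The fitted log2 fold change was 0.13 (95% interval -0.94 to 1.20, adjusted *P* = 0.981, edgeR). *S100b* (ENSMUSG00000033208.7, chr10:76253853-76261159), a calcium-binding protein of astrocytes, had the smallest unadjusted *P* value of the 18 tested members. It had 0.183, 0.239, 0.366, 0.248 and 0.425 CPM with PBS and 0.21, 0.673, 0.606, 1.07 and 0.206 CPM with GA, from 7 to 41 counts per library. Libraries 394_2, 400_1 and 400_2 lay above every PBS library, and the other GA libraries did not. For *S100b* the log2 fold change was 0.92 (95% interval -0.19 to 2.02, unadjusted *P* = 0.0965, adjusted *P* = 0.895, edgeR, exact permutation *P* = 0.222).

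*Aldoc*, the aldolase of astrocytes, had a log2 fold change of -0.87 (95% interval -2.17 to 0.43, adjusted *P* = 0.898, edgeR), with 0.482 to 2.45 CPM in PBS libraries and 0.0898 to 1.52 CPM in GA libraries. *Aldh1l1*, a folate enzyme used as an astrocyte marker, ran from 0.482 to 2.38 CPM with PBS and from 0.751 to 1.8 CPM with GA. It shares 499 exon bases, 11% of its exons, with the antisense gene *Gm15756*. Of 15 further astrocyte genes, 4 passed the filter and 0 were called, with 1 lower in GA at an unadjusted *P* under 0.05. That gene was *Glul*, the glutamine synthetase of astrocytes and the most abundant of the list by CPM at 177, with a log2 fold change of -0.22 (unadjusted *P* = 0.0366, adjusted *P* = 0.854, edgeR).

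Of the 8 endothelial genes, *Bsg* and *Pecam1* averaged above 5 CPM and the other 6 under 1 CPM. *Bsg* (ENSMUSG00000023175.15, chr10:79704491-79711969) had 416, 429, 435, 405 and 507 CPM in the PBS libraries and 452, 440, 484, 460 and 454 CPM in the GA libraries, and the PBS group held both the lowest and the highest value. Its log2 fold change was 0.06 (95% interval -0.08 to 0.20, adjusted *P* = 0.945, edgeR), and with a coefficient of variation of 6.81% it was the steadiest member. *Pecam1* (ENSMUSG00000020717.19, chr11:106654217-106750628) had 32.7, 29.6, 30.2, 36 and 22.9 CPM with PBS and 23.4, 24.2, 32.6, 31.4 and 32.8 CPM with GA. Library 388_5 and both libraries of prefix 394 were the 3 lowest, so low values occurred in each group. The log2 fold change of *Pecam1* was -0.07 (95% interval -0.35 to 0.21, adjusted *P* = 0.970, edgeR).

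*Cldn5*, the main claudin of the blood-brain barrier, was counted 9 times in all libraries, 8 of them in PBS library 388_3. *Tek*, the angiopoietin receptor, was counted 3 times, and *Slco1a4*, an organic anion transporter of brain capillaries, had 0 counts of 352950173, which allows up to 0.0085 CPM. *Itm2a*, a membrane protein of endothelium, was counted 33 times. *Cdh5*, the cadherin of endothelial junctions, ran from 0.186 to 1.22 CPM, and *Vwf*, the von Willebrand factor of platelet adhesion, from 0.085 to 3.17 CPM, with its maximum also in PBS library 388_3. Of 15 further endothelial genes, 5 averaged above 5 CPM and 10 under 1 CPM, so both ranges were also found there. Among the 7 that passed the filter, 0 were called and 0 had an unadjusted *P* under 0.05. The most abundant by CPM was *Eng*, a co-receptor for transforming growth factor, at 140 CPM.

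The neuronal genes were low throughout, and none of the 7 averaged above 5 CPM. *Camk2a* (ENSMUSG00000024617.16), the kinase of excitatory synapses, had 1.6, 1.49, 2.2, 1.52 and 1.84 CPM in the PBS libraries and 1.17, 1.99, 2.34, 1.62 and 2.47 CPM in the GA libraries. The GA group held both the lowest and the highest value. Its log2 fold change was 0.15 (95% interval -0.43 to 0.73, adjusted *P* = 0.969, edgeR). *Snap25* (ENSMUSG00000027273.13, chr2:136713453-136782428), a SNARE protein of synaptic vesicle release, had 0.654, 0.717, 0.977, 0.774 and 0.142 CPM with PBS and 0, 0.813, 0.606, 0.445 and 0.36 CPM with GA. Libraries 388_5 and 394_1 stood apart at the bottom, one in each group. For *Snap25* the log2 fold change was -0.54 (95% interval -2.00 to 0.91, adjusted *P* = 0.951, edgeR). The other 5 did not pass the filter. *Rbfox3*, which encodes the nuclear antigen NeuN, was counted 70 times in all libraries, *Nrgn*, the postsynaptic neurogranin, 55 times, *Stmn2*, a microtubule regulator of growing axons, 29 times, *Syt1*, the calcium sensor of vesicle release, 24 times and *Tubb3*, the neuronal tubulin, 10 times. Of 15 further neuronal genes, 4 passed the filter, of which 0 were called and 0 had an unadjusted *P* under 0.05.

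*Ttr* (ENSMUSG00000061808.4), the thyroid hormone carrier that the choroid plexus secretes, was the most uneven of the tested members. It was counted 2, 25, 102, 0 and 0 times in the PBS libraries and 0, 28, 158, 89 and 23 times in the GA libraries, or 0 to 3.11 CPM and 0 to 4.56 CPM. The highest values were in PBS library 388_3 and GA libraries 400_1 and 400_2, and both groups held a library at 0. Its log2 fold change was 1.08 (95% interval -1.49 to 3.66, adjusted *P* = 0.945, edgeR, exact permutation *P* = 0.333). This value rests on single libraries, since it was 3.04 without 388_3 and 0.26 without 400_1, and limma-voom gave 2.31. *Enpp2*, an enzyme abundant in choroid plexus epithelium and the leading gene by CPM of 7 further choroid plexus markers, was also highest in 388_3 and 400_1, at 85 and 109 counts. Among the others of that list, *Folr1* was highest in 388_5 at 20 counts and *Clic6* in 394_2 at 18 counts. They had 4 and 0 counts in 388_3 and 14 and 6 counts in 400_1, and *Aqp1* was counted in 400_1 alone, 7 times. The fitted log2 fold change of *Enpp2* was 0.98 (adjusted *P* = 0.940, edgeR). *Kl* and *Otx2*, which mark the same epithelium, had 0 counts in every library.

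Across the list, edgeR called 0 of the 18 tested members at an adjusted *P* under 0.05, where it called 0% of the 14481 genes tested. At an unadjusted *P* under 0.05 it found 0 of the 18, against 5.75% of all genes. The libraries of both groups overlapped for each of the 18, while 0.891% of all genes tested had groups that did not overlap. DESeq2 called 0 of the 27 members to which it gave an adjusted *P*, against 0.0106% of the genes with one, and it gave 0 of 32 members an unadjusted *P* under 0.05, against 4.53% of all genes. In limma-voom 0 of 18 members had one, against 6.12% of all genes. Adjusted *P* values of the members from edgeR ran from 0.895 to 0.997. The fitted log2 fold change was above 0 in 10 members and below 0 in 8, with a median of 0.05 beside 0.0002 over all genes tested. By class, the median log2 fold change was 0.02 over 4 oligodendrocyte genes, -0.02 over 6 astrocyte genes, -0.0036 over 4 endothelial genes and -0.20 over 2 neuronal genes. A set of 6 neutrophil markers, a cell type outside the list, all had a lower fitted level in the GA libraries at an unadjusted *P* under 0.05, with a sum of 34.5 to 425 CPM with PBS and 8.95 to 156 CPM with GA. None of the 6 was at 0 in a library, and their lowest adjusted *P* was 0.847 (edgeR). Of 4 monocyte markers, all had a fitted level below that of PBS, 2 of them (*Ly6c2* and *Chil3*) at an unadjusted *P* under 0.05 and with 0 called. *Ccr2*, the most abundant by CPM at 30.2, had a log2 fold change of -0.10 (unadjusted *P* = 0.604, edgeR). *Plac8* had -0.03 (unadjusted *P* = 0.932, edgeR). The sum of the 4 was 27.8 to 83.6 CPM with PBS and 30.9 to 42.8 CPM with GA.

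**Figure D2:**
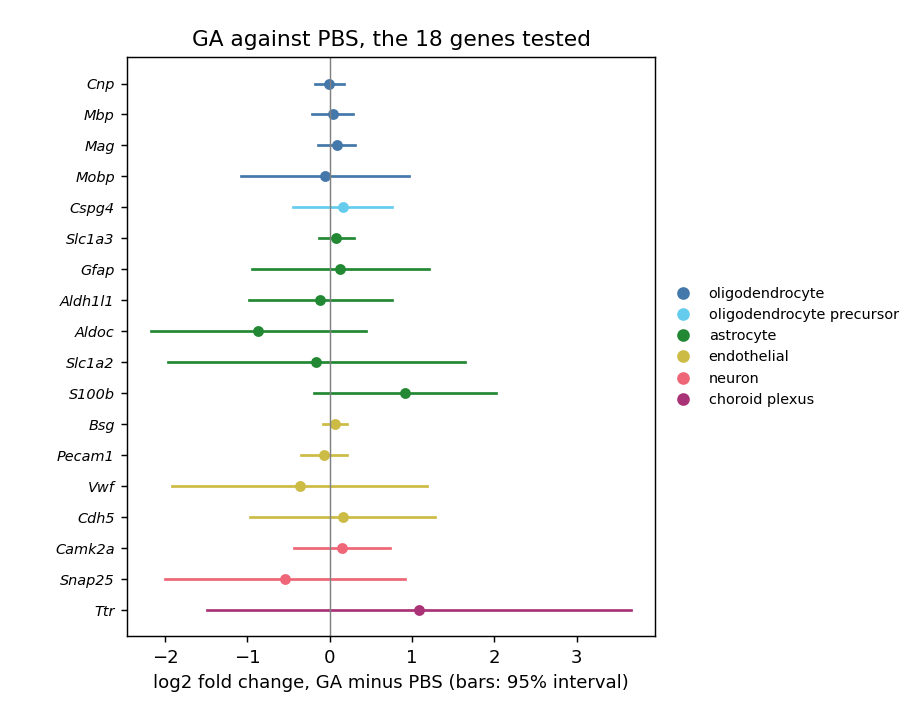
Fitted log2 fold change, GA minus PBS (horizontal axis), of the 18 tested genes (vertical axis, coloured by class). Points are edgeR's estimates and bars their 95% intervals, and every bar crosses 0, from the narrow one of Bsg (-0.08 to 0.20) to the wide one of Ttr (-1.49 to 3.66).

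How much could have gone unseen differed between the abundant and the scarce genes. For 6 of the 7 abundant genes, the 95% intervals of the log2 fold change all lay between -0.35 and 0.31, and with *Cspg4* they ran from -0.44 to 0.76. The biological coefficient of variation that edgeR estimated had a median of 0.123 over the 7 abundant genes and 0.548 over the 11 scarce genes tested, beside 0.157 over all genes tested. Coefficients of variation of the CPM over the 10 libraries ran from 6.81 to 36.3% in the first set and from 22.9 to 130% in the second.

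Within the GA group the prefix gave a further comparison, of the 3 libraries of prefix 400 with the 2 of prefix 394. EdgeR called 0 of the 18 members, against 0.0138% of all genes tested, and 3 had an unadjusted *P* under 0.05, against 5.48% of all genes. *Slc1a3* was lower in the libraries of prefix 400, at a mean of 258 against 336 CPM (log2 fold change -0.38, unadjusted *P* = 0.00215, adjusted *P* = 0.461, edgeR). *Cspg4* was higher there, at 18.5 against 8.51 CPM (log2 fold change 1.12, unadjusted *P* = 0.00279, adjusted *P* = 0.486, edgeR), and so was *Pecam1*, at 32.2 against 23.8 CPM (log2 fold change 0.44, unadjusted *P* = 0.0173, adjusted *P* = 0.712, edgeR). What the prefix stands for is not stated.

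**Figure D3:**
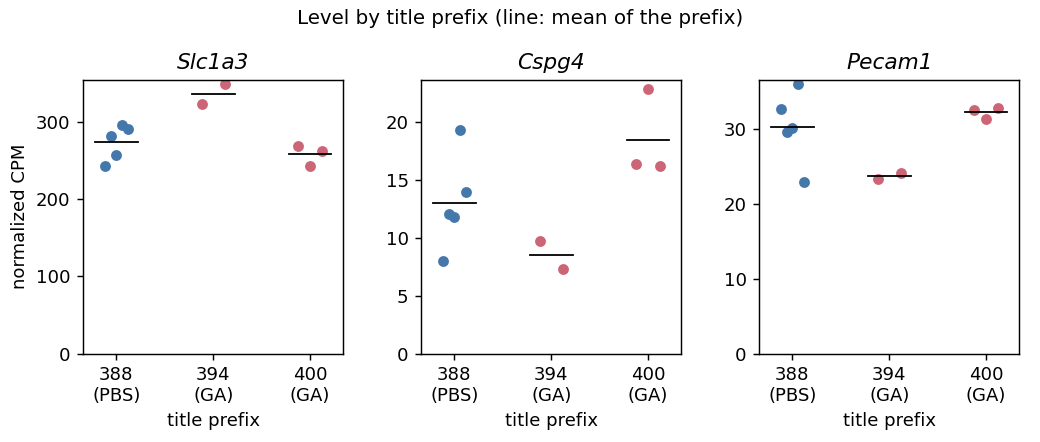
Normalized CPM (vertical axis, from 0) of Slc1a3, Cspg4 and Pecam1 in libraries of each title prefix, with 5 PBS libraries (388, blue) and 5 GA libraries (394 and 400, red). Points are libraries and lines the mean of the prefix. For Slc1a3 the 394 points (323 and 349 CPM) lie above the 400 points (243 to 268 CPM), and for Cspg4 and Pecam1 they lie below them.

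The scarce genes were not spread evenly over the libraries. Summed over the 26 genes at or under 5 CPM, the level was 10.6, 8.81, 20.4, 15.8 and 9.97 CPM in the PBS libraries and 8.36, 12.9, 18.7, 15.6 and 10.9 CPM in the GA libraries. It was highest in PBS library 388_3, followed by GA library 400_1, and the groups overlapped, with means of 13.1 and 13.3 CPM. Library 388_3 had the highest level of 7 of the 25 scarce genes with any count. These were the neuronal genes *Snap25*, *Nrgn* and *Stmn2*, the endothelial genes *Cldn5*, *Tek* and *Vwf* and the astrocyte gene *Slc1a2*. Library 388_4 was highest for the astrocyte genes *Gfap*, *Aldh1l1*, *Gja1* and *Aldoc*, and it also had the highest sum of 5 border macrophage markers, at 230.8 CPM against 41.5 to 176 CPM in the other libraries. The other scarce astrocyte genes were not high there, with 0.031 CPM for *Aqp4*, 0.155 CPM for *Slc1a2* and 0.248 CPM for *S100b*. Correlations of the 6 tested astrocyte genes with that sum are given below.

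**Figure D4:**
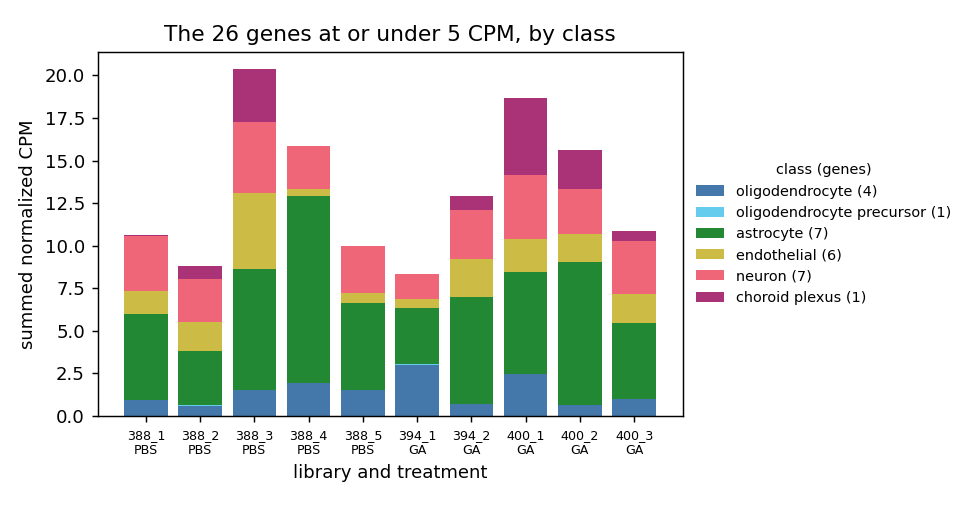
Summed normalized CPM (vertical axis, from 0) of the 26 genes at or under 5 CPM in each of the 10 libraries (horizontal axis, with treatment), stacked by class. The tallest bars are those of PBS library 388_3 (20.4 CPM) and GA library 400_1 (18.7 CPM), the astrocyte genes fill the largest part of 388_4, and Ttr is visible mainly in 388_3, 400_1 and 400_2.

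How the members varied together was measured by correlation. Pearson's r on log2(CPM + 0.1) was computed over the 10 libraries for all 153 pairs of the 18 tested genes. At an unadjusted *P* under 0.05 from 100000 permutations, 9 pairs (5.88%) passed, and 0 passed after Benjamini-Hochberg adjustment over the 153. The 28 pairs within a class had a median r of 0.10, from -0.568 to 0.617, and 0 of them had an unadjusted *P* under 0.05. The 125 pairs between classes had a median r of 0.06. With the treatment means removed, 11 pairs passed at the unadjusted level and 0 after adjustment.

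Within classes, the largest absolute r was 0.617 for *Gfap* and *S100b* (permutation *P* = 0.0594, adjusted 0.666, rho 0.600 with permutation *P* = 0.0732, r = 0.867 without libraries 388_2 and 388_4). For the myelin genes *Cnp* and *Mag* r was -0.568 (permutation *P* = 0.0889, adjusted 0.8, rho -0.297 with permutation *P* = 0.408) and was -0.050 without libraries 388_5 and 394_2. *Pecam1* and *Bsg* gave r = -0.489 (permutation *P* = 0.151, adjusted 0.803, rho -0.406 with permutation *P* = 0.246), and -0.149 without 388_5 and 394_1. Across classes the largest was *Aldoc* with *Snap25*, r = 0.828 (permutation *P* = 0.00346, adjusted 0.29, rho 0.745 with permutation *P* = 0.0175, r = 0.594 without 388_4 and 394_1). The largest negative value was that of *Aldh1l1* with *Bsg*, r = -0.809 (permutation *P* = 0.00537, adjusted 0.29, rho -0.612 with permutation *P* = 0.0665, r = -0.433 without 388_4 and 388_5). *Cdh5* and *Ttr* gave r = 0.796 (permutation *P* = 0.00874, adjusted 0.334, rho 0.767 with permutation *P* = 0.014, r = 0.843 without 388_2 and 388_4). *Mbp* and *Cspg4* gave r = 0.793 (permutation *P* = 0.00569, adjusted 0.29, rho 0.721 with permutation *P* = 0.0235, r = 0.475 without 388_1 and 394_2). Without GA library 400_2, this one pair passed the adjustment (r = 0.946, adjusted permutation *P* = 0.0367).

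**Figure D5:**
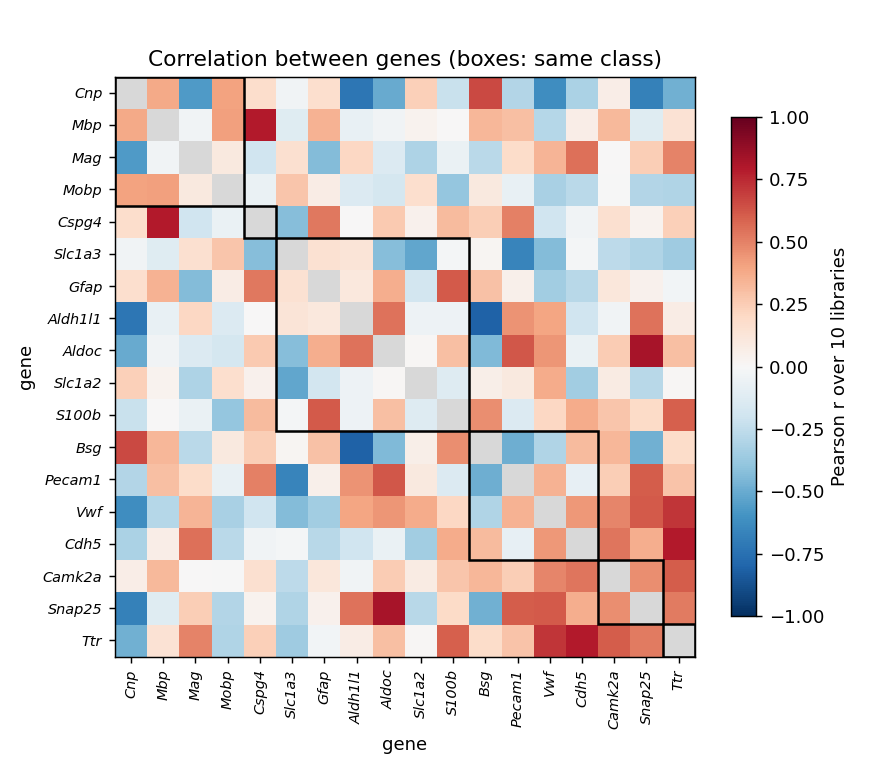
Pearson's r between the 18 tested genes over the 10 libraries (colour scale, blue negative and red positive), in the same gene order on both axes. Boxes enclose pairs of the same class, where r runs from -0.568 to 0.617, and colours inside the boxes are no deeper than those outside, where r reaches 0.828.

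The tested members were also set against the summed CPM of the microglial, border macrophage and neutrophil markers in the same libraries, 54 relations chosen after the values were seen. Only 1 passed the adjustment over the 54. *Aldh1l1* was lower in libraries with a higher microglial sum, with r = -0.945 (permutation *P* = 3e-05, adjusted 0.00162) and rho = -0.964 (permutation *P* = 7e-05, adjusted 0.00378). Without libraries 388_5 and 400_1 the value was -0.868, with any 1 library left out it ran from -0.959 to -0.910, and it was -0.945 with the treatment means removed. The microglial sum itself ran from 55170 to 65860 CPM. Both measures come from the same libraries and share their scaling, and *Aldh1l1* rests on 17 to 77 counts per library. *Cnp* (r = 0.815) and *Bsg* (r = 0.795) were higher with a higher microglial sum but did not pass (both adjusted permutation *P* = 0.0761). Without 388_5 and 400_1 they gave r = 0.522 and 0.309. Set against the border macrophage sum, the 6 tested astrocyte genes gave r = -0.348 for *Slc1a3*, 0.243 for *Slc1a2*, 0.322 for *S100b*, 0.551 for *Gfap*, 0.682 for *Aldh1l1* and 0.815 for *Aldoc*. None of the 6 passed the adjustment, and *Aldoc* had the smallest unadjusted value (permutation *P* = 0.00356, adjusted 0.0761, rho 0.758 with permutation *P* = 0.0149, r = 0.744 without 388_4 and 400_2). With the treatment means removed *Aldoc* gave 0.884 (adjusted permutation *P* = 0.0181).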

How the data were processed

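RNA of sorted hippocampal microglia was measured in 10 libraries (SMARTer amplification, Nextera XT libraries, single-end reads). The authors deposited whole-number read counts per gene symbol, without normalization. The submitters' processing notes name bcl2fastq 2.19.0, fastp 0.20.0, STAR 2.7.0f, Subread 1.6.4, featureCounts, DESeq2 and the build GRCm38.p6. The annotation and strandedness are not given in the sources used here. Reads carry no molecular identifiers, so amplification copies cannot be removed. Every count column belongs to a labelled library.

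Groups came from the treatment labels. The members and lists were chosen with earlier results of these data known. Genes were kept by edgeR 4.0.16 (filterByExpr, minimum count 10), scaled by TMM and tested by the quasi-likelihood F-test without covariates in R 4.3.3, with Benjamini-Hochberg adjustment over all 14481 genes and calls at 0.05. Intervals are the log2 fold change with its standard error at the 95% level. For single genes an exact permutation test, two-sided, was run on log2(CPM + 0.1) over the 252 arrangements of the libraries, whose smallest *P* is 0.00794. Correlations used 100000 two-sided permutations. All pairs of libraries, within and across groups, differed beyond counting noise (chi-square per degree of freedom of 14.03 to 55.66). None was therefore taken for a library deposited more than 1 time. This does not show that libraries are independent animals. Alternatives were DESeq2 1.42.0 with its defaults, limma 3.58.1 (voom), other scalings and filters, a pseudocount of 1 CPM, each library left out and the GA libraries of 1 prefix.

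Genes described with every library's value were, in each class, the one with the highest mean CPM, the one with the smallest unadjusted *P* and the pair with the largest absolute r, and any with an unadjusted *P* under 0.05 or groups that did not overlap, of which there were 0. *Mog*, *Folr1*, *Clic6*, *Aqp1*, *Ly6c2*, *Chil3*, *Plac8*, the *Mog* ratio without each library and the genes of the prefix comparison were added after their values were seen. Gene positions are from GENCODE M21 on GRCm38, and promoter sequences from RefSeq on GRCm38.p6. Certain items are not reported here.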

Additional observations from a re-analysis of the deposited data

Results flagged for a closer look

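*Snap25* in PBS library 388_5 stood far below the other PBS libraries, at 0.142 CPM against 0.654 to 0.977 CPM, or 5 counts against 24 to 32. On log2(CPM + 0.1), the gap to the nearest library took 0.761 of the group's range, above Dixon's critical value of 0.71 for 5 samples. The flag holds on that scale and not on the CPM as printed. This was 1 of 36 gene and treatment groups tested, and chance alone gives such a gap in about 5% of groups.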

How the results depend on the processing

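The count of members called by an adjusted *P* stayed at 0 under each alternative, including DESeq2, limma-voom, other scalings and filters, each library left out and the GA libraries of 1 prefix. The count with an unadjusted *P* under 0.05, which was 0, became 1 of 32 without a filter on low counts (*Mog*, against 6.9% of all genes in that fit), 2 of 21 with the GA libraries of prefix 394 only (*Slc1a3* and *Gja1*, against 3.24%) and 1 of 20 with those of prefix 400 only (*Cspg4*, against 6.47%). It ran from 0 to 2 with 1 library left out, against 4.04 to 7.72% of all genes, where *Ttr* passed without 388_3, *Gja1* and *Bsg* without 388_5 and *S100b* without 394_1 or without 400_3. The median log2 fold change of the members was -0.156 with prefix 394 only and ran from -0.0342 to 0.0803 with 1 library left out. The share of counts held by the members ran from 0.0973 to 0.0986% and the count of correlated pairs from 0 to 1. Some directions turned, all of genes that were not called. *Cnp* had a log2 fold change of 0.0056 without the filter, 0.0258 with prefix 400 only and -0.0342 to 0.0752 with 1 library left out, and its exact permutation *P* without TMM was 1. With prefix 394 only, *Cspg4* had -0.603, *Gfap* -0.156, *Camk2a* -0.123 and *Ttr* -0.973, and with prefix 400 only *Slc1a3* had -0.0797 and *Pecam1* 0.0952. With 1 library left out, *Cspg4* ran from -0.0618 to 0.343, *Gfap* from -0.0992 to 0.618 and *Pecam1* from -0.15 to 0.000324, while *Ttr* (0.259 to 3.04), *S100b* (0.536 to 1.13) and *Snap25* (-0.873 to -0.229) kept their direction. The ratio of *Mog* with GA to its PBS limit, an alternative chosen after seeing the data, ran from 2.75 without 400_1 to 7.12 without 394_2. The cause was not tested. No paired analysis was possible because the number in a library's title counts libraries within a prefix and no prefix holds both treatments. Low counts kept 15 genes out of the test, at 0 to 78 counts over all libraries. Whether deeper sequencing would change this was not tested.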
